A study of Homo sapiens with 16 samples.

Results

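Camptothecin (CPT) at 5, 10 and 20 µM was set against CPT at 0.5 and 2 µM in U2OS, a human osteosarcoma cell line, after 6 h of treatment. The upper doses are 3 libraries and the lower doses 2, taken by their labelled dose from the 16 libraries of the series; each dose has 1 library. The DMSO library, the solvent control of the same line at 6 h, was used only to say whether a gene moved away from or back towards its untreated level, and the labels name no other agent or genetic change in any library. The other 10 libraries hold the compounds T4 and T5, known here by their code names and described in the labels as modulators of alternative polyadenylation, at the same 5 doses. The labels do not say that libraries came from separate cultures. The libraries of a side are neighbouring doses, not replicates, so every p-value below measures the scatter between single libraries, and that scatter includes any change with dose inside a side.

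Camptothecin is a poison of DNA topoisomerase I (TOP1), the enzyme that nicks and reseals 1 strand of DNA to release the twisting that builds up around a moving RNA polymerase. The drug traps the enzyme on the nicked strand. Trapped enzyme stands in the way of RNA polymerase II inside genes and, in cells copying their DNA, of replication forks, where it turns into double-strand breaks. Long genes offer the polymerase more places to be stopped, and short genes are known to be spared or raised. Breaks switch on the checkpoint kinases and p53, whose targets stop the cell cycle, feed back on p53, repair DNA or start apoptosis.

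The transcriptome changed little between neighbouring doses from 5 µM upwards, but the flattening was already largely in place at 2 µM. On the log2(FPKM + 1) scale, where FPKM is the number of sequenced fragments scaled to transcript length and library size, 982 of 10600 genes (9.26%) differed by at least 1 unit between 0.5 µM CPT and DMSO. Between 2 and 0.5 µM 649 genes (6.12%) did, of which 599 were lower at 2 µM. The step to 5 µM from 2 µM held 57 such genes (0.538%), the step to 10 µM 22 (0.208%) and the step to 20 µM 19 (0.179%). The median absolute difference per gene was 0.32 between 2 and 0.5 µM, 0.16 between 5 and 2 µM, 0.09 between 10 and 5 µM and 0.06 between 20 and 10 µM. Pearson's r across genes, which are not independent replicates, lay between 0.982 and 0.986 among 5, 10 and 20 µM, and was 0.973 for 5 and 2 µM against 0.945 for 2 and 0.5 µM. The lower side is therefore not a uniform group: its 2 µM library lay nearer to 5 µM than to 0.5 µM.

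**Figure D1:**
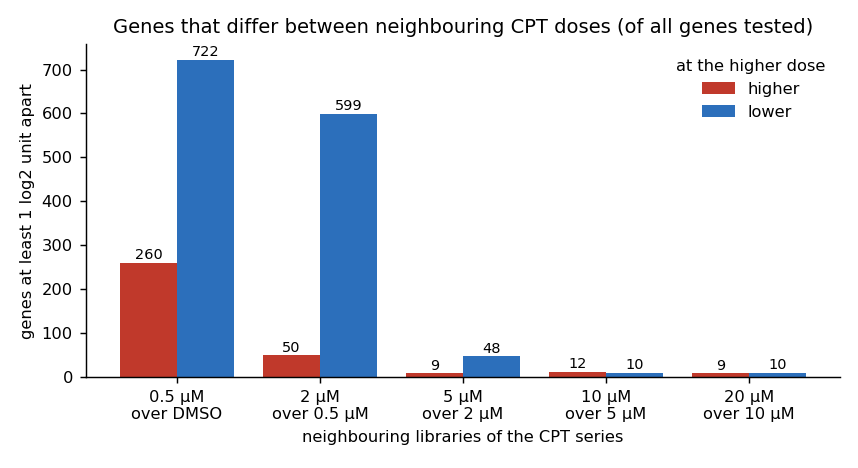
Number of genes, of 10600, at least 1 log2(FPKM + 1) unit higher (left bar of each pair) or lower (right bar) in a library than in the next lower dose, for the 5 steps of the CPT series with 1 library per dose. The bars drop from 260 and 722 genes at the first step to 9 and 10 at the last.

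The line markers matched U2OS in part. The collagen COL1A1, the matrix protein SPARC, vimentin (VIM) and fibronectin (FN1) were abundant in all 6 libraries, at 129 to 602 FPKM, while COL1A2 stayed at 0.104 FPKM or below, TWIST1 was listed at 0 and BGLAP and IBSP were at or next to 0. RUNX2, a bone transcription factor, had 0.876, 1.13 and 0.905 FPKM at 5, 10 and 20 µM, against 0.852 and 0.644 FPKM at 0.5 and 2 µM and 2.86 FPKM in DMSO. The summed FPKM of 13 epithelial and blood cell genes was 8.08 to 9.30 at the upper doses, 5.78 to 7.62 at the lower doses and 4.84 in DMSO. Of these, HBB was listed at 0 in all 6, 9 of the 13 stayed under 1 FPKM, and CD14 had 0.766, 1.18 and 1.81 FPKM at 5, 10 and 20 µM, against 0.105 and 0.458 FPKM at 0.5 and 2 µM and 0.0114 FPKM in DMSO; the part of these genes in the results was not tested. Depth relative to DMSO, read from the steps of the lowest values, was 0.809, 0.695 and 0.732 at 5, 10 and 20 µM and 0.827 and 0.818 at 0.5 and 2 µM. Depth was thus lower on the upper side; its part in the results was not tested. FPKM is a share of the library, so fewer cells and less RNA per cell cannot be told apart.

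Against the lower doses, 52 of 10600 genes (0.491%) were higher at the upper doses and 888 (8.38%) were lower (limma, Benjamini-Hochberg adjusted p under 0.05, 3 residual degrees of freedom). The lower genes included cyclin E2, cyclin A2, AURKA and other cell cycle genes, p53 targets such as SESN1 and PPM1D, and parts of the nuclear RNA exosome. Most of the higher genes were long ones, PTK2, PPP3CA and TRIO among them, that CPT had pushed far below DMSO at every dose. Among the called genes, the upper mean was at least 1 log2 unit below the lower mean in 338 and at least 1 unit above it in 3. Genes that were not called also differed by 1 unit or more in either direction and are not in these counts. No called gene had overlapping sides; over all genes tested, all 3 upper values stood above both lower ones in 28.9% and below them in 35.7%. An unadjusted p under 0.05 was reached by 1534 genes in the higher and 2724 in the lower direction.

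These calls lie at the edge of what 3 against 2 libraries can give. The lowest adjusted p of any gene was 0.0459 and the highest among called genes 0.0499 (limma), and leaving out the 5, 10 or 20 µM library left 0 called genes each time, with 756, 355 and 342 higher and 2082, 1736 and 1791 lower genes at an unadjusted p under 0.05. An exact permutation test of 3 against 2 libraries, one-sided, cannot go below 0.1. Median centring moved every gene up by 0.23 and turned the split to 897 higher and 937 lower genes, among them all 52 and 684 of the 888. The median difference over all genes was -0.04 as deposited, so centring put it above 0. A centred list or bin median near 0 therefore still lies below that of all genes. With quantile normalization 0 genes passed in either direction, and 2609 higher and 2158 lower ones had an unadjusted p under 0.05. All 888 lower and 52 higher genes kept their sign with quantile normalization. With centring the sign could not change, since the smallest absolute difference among called genes was 0.396, more than the shift.

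Set against DMSO, CPT moved more genes down than up on both sides. The upper mean was at least 1 log2 unit above DMSO in 603 genes (5.69%) and at least 1 below it in 2223 (21.0%); the lower mean was so in 398 (3.75%) and 1214 (11.5%). Of the 1214 genes that far below DMSO at the lower doses, 39 were called higher and 9 lower at the upper doses. Of the 398 that far above it, 1 was called higher and 25 lower. Over all genes 0.491% were called higher and 8.38% lower. Both groups were chosen by their lower-dose mean, which also enters the test. The choice itself tilts these counts, so they are no result.

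The genes called higher and those called lower stood apart in their relation to DMSO. Of the 52 higher genes, 44 had been pushed below DMSO at the lower doses and were nearer to it at the upper ones, with a median of -1.11 at the upper and -1.73 at the lower doses. Only 7 had been above DMSO and went further up, and 1 crossed it. Of the 888 lower genes, 450 stood above DMSO at the lower doses and below it at the upper ones, 372 were below it and went further down, and 66 were above it and came nearer to it. In 790 of the 888 all 3 upper values were below DMSO, and in 287 of these both lower values had been above it. The 0.5 µM value was above the 2 µM value in 817 of the 888, and below it in 47 of the 52. DMSO is 1 library and both sides are set against it, so these classes are descriptions without a test.

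**Figure D2:**
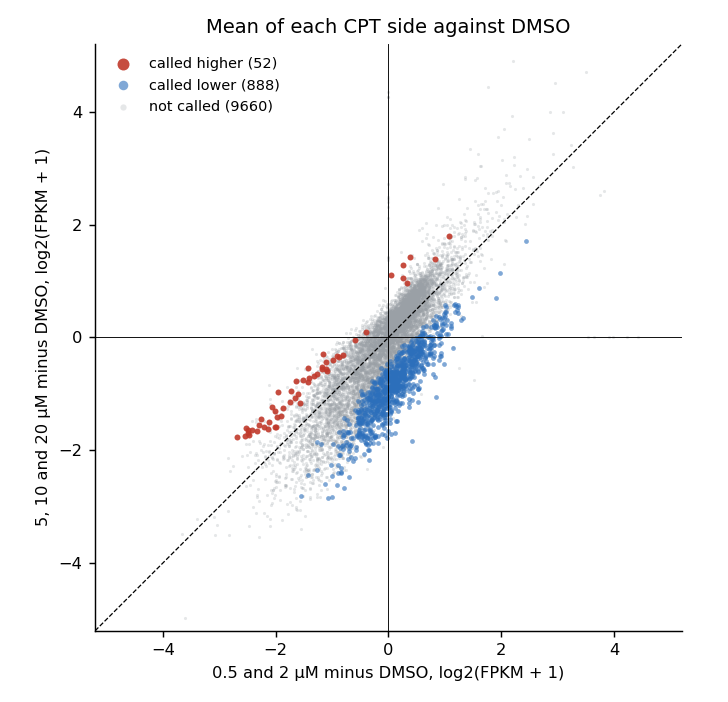
Mean log2(FPKM + 1) of the 3 upper-dose libraries minus DMSO (vertical) against the mean of the 2 lower-dose libraries minus DMSO (horizontal) for each of 10600 genes, 8 of which lie outside the axes; the dashed line marks equal values. The 52 genes called higher lie mostly at the lower left above the line, and the 888 called lower run below the line from the upper right to the lower left.

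CTIF, PTK2 and PPP3CA had the largest differences among the 44 genes that CPT had pushed down and that stood higher again at the upper doses. PTK2, the focal adhesion kinase, had 10.5, 12.4 and 12.4 FPKM at 5, 10 and 20 µM, against 4.81 and 6.80 FPKM at 0.5 and 2 µM and 38.0 FPKM in DMSO. All 3 upper values were above both lower ones and all 5 were far under DMSO; the difference was 0.92 ± 0.16 log2 units (SE; adjusted p = 0.0459, limma). PPP3CA, the catalytic subunit of the phosphatase calcineurin, had 5.43, 7.13 and 7.20 FPKM at the upper doses, against 2.84 and 3.14 FPKM at the lower doses and 24.7 FPKM in DMSO, a difference of 0.92 ± 0.15. The upper and lower values do not overlap, and the 10 and 20 µM values of PPP3CA were all but equal. TRIO, named as a member of the list of very long genes and a guanine nucleotide exchange factor for small GTPases, had 7.12, 8.10 and 8.91 FPKM at the upper doses, against 3.85 and 5.03 FPKM at the lower doses and 28.9 FPKM in DMSO and differed by 0.74 ± 0.15.

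The same order of values ran through the other leading genes of this kind. ZFAND3, a zinc finger protein, had 7.01, 7.43 and 7.88 FPKM at the upper doses, against 3.47 and 4.20 FPKM at the lower doses and 26.2 FPKM in DMSO. FER, a cytoplasmic tyrosine kinase, had 3.14, 3.05 and 3.27 FPKM at the upper doses, against 0.997 and 1.79 FPKM at the lower doses and 10.3 FPKM in DMSO, and ARL15, a small GTPase, had 2.77, 2.97 and 3.27 FPKM at the upper doses, against 0.990 and 1.57 FPKM at the lower doses and 8.44 FPKM in DMSO. In each the 3 upper values were close together and well above both lower ones. CTIF, a translation initiation factor that works with the nuclear cap-binding complex (0.99 ± 0.21), the Hippo pathway scaffold WWC2 (0.87 ± 0.16), the kinase STK39, which acts on ion cotransporters (0.86 ± 0.18), the endocytic adaptor EHBP1 (0.85 ± 0.15) and the zinc finger cofactor JAZF1 (0.80 ± 0.16) completed the largest differences. CERS6-AS1 (0.87 ± 0.18) lies antisense to another gene, and no source used here says that reads were assigned by strand, so its reads and those of its partner cannot be told apart.

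Of 30 very long genes listed, 23 were expressed highly enough to be tested; 3 were called higher (PTK2, TRIO and the spindle checkpoint gene MAD1L1, 0.61 ± 0.12) and 0 lower, against 0.491% and 8.38% of all genes. All upper values lay above both lower values in 17 of the 23, against 28.9% of all genes. The median difference was 0.47. It was 0.70 with median centring, which raises every gene alike and is no check of a positive sign, and 0.65 with quantile normalization. It also depended on the lower library it was set against: leaving out 0.5 or 2 µM in turn gave a median of 0.24 against 2 µM alone and 0.64 against 0.5 µM alone. Not every long gene was higher at the upper doses: AUTS2 had 0.888, 0.694 and 0.749 FPKM at 5, 10 and 20 µM, against 3.02 and 1.40 FPKM at 0.5 and 2 µM and 4.67 FPKM in DMSO (-0.81 ± 0.23, not called), and EXT1 had 4.85, 5.82 and 5.92 FPKM at the upper doses, against 6.88 and 3.22 FPKM at the lower doses and 59.7 FPKM in DMSO, with overlapping sides. COL4A2, a basement membrane collagen, had 243, 255 and 266 FPKM at the upper doses, against 161 and 215 FPKM at the lower doses and 152 FPKM in DMSO and was above DMSO at every dose (0.45 ± 0.14, not called).

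Genomic span, taken by symbol from GENCODE v29 and found for 10036 genes (94.7%), ran with the direction of the call. The median span was 241 kb in the 49 higher genes with a span and 29.8 kb in the 856 lower ones, against 31.3 kb over all genes. A span of at least 100 kb was found in 39 of the 49 higher and 46 of the 856 lower genes, and in 18.4% of all. The 7 higher genes that had gone further above DMSO were short, with a median span of 3.00 kb in the 5 that had one.

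The relation with span was not monotonic. Genes under 5 kb had a median difference of 0.16 and those of 5 to 10 kb 0.10. Genes of 20 to 50 kb had a median of -0.20 and 50 to 100 kb -0.24, but median centring moved these medians to 0.04 and -0.01. Genes of 200 to 400 kb had a median of 0.28 (n = 487) and those of 400 kb and more 0.37 (n = 175), and these were 0.51 and 0.60 with median centring. Against 2 µM alone the medians were 0.02 under 5 kb, -0.03 at 5 to 10 kb and -0.03 at 50 to 100 kb, so these bins rested on the 0.5 µM library. Genes of 20 to 50 kb had -0.12 against 2 µM alone and the 2 longest bins 0.24 and 0.22, which kept their sign. The share of genes called higher was 4.93% at 200 to 400 kb and 0% at 20 to 50 kb, where 13.5% were called lower. Non-overlapping sides with the upper values on top were found in 77.7% of the genes of at least 400 kb, against 28.9% of all genes.

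Against DMSO, long genes were low on both sides and the order of the sides changed with span. Genes of 50 to 100 kb had a median of -0.67 at the upper and -0.39 at the lower doses. Genes of 200 to 400 kb had a median of -0.85 at the upper and -1.05 at the lower doses, and genes of at least 400 kb had -0.68 and -0.98. In the shortest bin both medians were above DMSO, at 0.58 for the upper and 0.43 for the lower doses. The bins were chosen after the data had been seen.

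**Figure D3:**
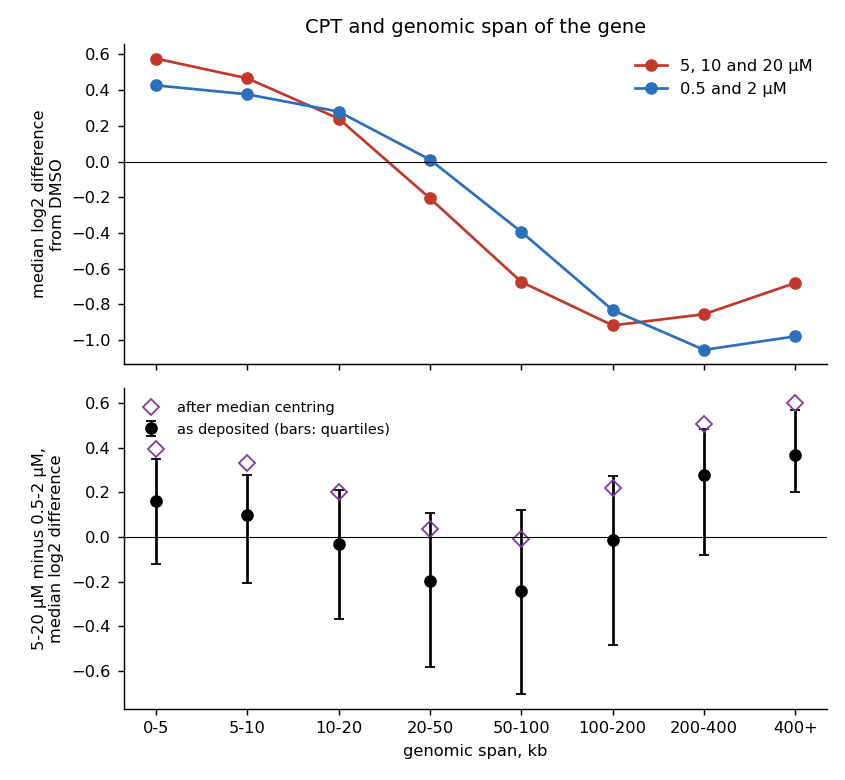
Top, median log2(FPKM + 1) difference from DMSO of genes grouped by genomic span (kb), for the mean of the 3 upper and of the 2 lower CPT doses. Bottom, median upper minus lower difference with quartiles, and the same after median centring: the medians are lowest at 20 to 100 kb, where centring takes them from -0.20 and -0.24 to 0.04 and -0.01, and highest at 400 kb and more.

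The largest differences among the lower genes were those of FAM111B, GOLPH3 and CCNE2, which have different roles. FAM111B, a protease, had 4.44, 3.73 and 4.07 FPKM at 5, 10 and 20 µM, against 35.6 and 15.2 FPKM at 0.5 and 2 µM and 17.2 FPKM in DMSO. Its difference of -2.26 ± 0.34 was the largest among the genes called lower (adjusted p = 0.0459, limma); 0.5 µM alone stood above DMSO, and the 3 upper values were alike. CCNE2, cyclin E2, which drives entry into S phase, had 7.82, 5.46 and 5.04 FPKM at the upper doses, against 31.2 and 19.8 FPKM at the lower doses and 13.5 FPKM in DMSO (-1.89 ± 0.25). Both lower values were above DMSO and all 3 upper ones under it. GOLPH3, a Golgi protein, had 3.95, 3.10 and 3.47 FPKM at the upper doses, against 24.0 and 10.1 FPKM at the lower doses and 27.7 FPKM in DMSO (-1.89 ± 0.35). CDK7, the kinase of the general transcription factor TFIIH, had 3.13, 2.54 and 2.73 FPKM at the upper doses, against 18.2 and 7.77 FPKM at the lower doses and 26.2 FPKM in DMSO (-1.77 ± 0.34). GOLPH3 and CDK7 were under DMSO at every dose, and their 3 upper values were close together.

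The other lower genes named by size lay between -1.83 ± 0.26 and -1.66 ± 0.29. They were the long noncoding RNA LINC00958, the transcription factor GPBP1 (-1.82 ± 0.35), the mRNA decapping factor DCP1B (-1.81 ± 0.29), WDR43, a nucleolar factor of ribosome assembly (-1.77 ± 0.29), CEBPZ (-1.76 ± 0.28), RMI1, a partner of the BLM helicase (-1.75 ± 0.33), MAGEF1 (-1.68 ± 0.36) and the Hippo scaffold SAV1. In every one of them 0.5 µM exceeded 2 µM, and 2 µM exceeded all 3 upper values.

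Of 21 G2/M genes, 6 were called lower (CCNA2, CDK1, AURKA, AURKB, KIF23 and NEK2) and 0 higher, against 8.38% and 0.491% of all genes. The list had a median difference of -0.54, which stayed negative with median centring (-0.31) and quantile normalization (-0.43) and was -0.34 against 2 µM alone and -0.80 against 0.5 µM alone. CDK1 and AURKB were not called with centring (adjusted p = 0.102 and 0.0642, limma). The mitotic kinase AURKA had 5.92, 4.58 and 4.41 FPKM at 5, 10 and 20 µM, against 16.6 and 10.3 FPKM at 0.5 and 2 µM and 40.5 FPKM in DMSO (-1.25 ± 0.23). Cyclin A2 (CCNA2) had 10.7, 9.40 and 10.8 FPKM at the upper doses, against 30.4 and 17.8 FPKM at the lower doses and 42.8 FPKM in DMSO (-1.11 ± 0.23), and its kinase partner CDK1 had 56.3, 56.4 and 55.6 FPKM at the upper doses, against 91.5 and 73.2 FPKM at the lower doses and 93.0 FPKM in DMSO (-0.54 ± 0.11). These genes were already below or level with DMSO at the lower doses, and they were lower still at the upper doses. Members whose sides overlapped included PLK1, CCNB2 and CDC20; CDC20, the activator of the anaphase-promoting complex, had 64.3, 66.1 and 65.4 FPKM at the upper doses, against 62.9 and 66.9 FPKM at the lower doses and 103 FPKM in DMSO. BIRC5 (survivin) was the member with the largest positive difference (0.24 ± 0.13, not called).

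Of 21 G1/S and replication genes, 4 were called lower (CCNE2, CDC6, MCM10 and PCNA) and 0 higher, against 8.38% and 0.491% of all genes, with a list median of -0.19 that turned to 0.05 with median centring and was -0.10 against 2 µM alone and -0.16 against 0.5 µM alone. The origin-licensing factor CDC6 had 27.3, 21.0 and 19.7 FPKM at 5, 10 and 20 µM, against 62.4 and 45.3 FPKM at 0.5 and 2 µM and 44.5 FPKM in DMSO (-1.21 ± 0.20), and MCM10, which helps to start forks, had 6.26, 5.07 and 4.87 FPKM at the upper doses, against 20.3 and 12.8 FPKM at the lower doses and 17.5 FPKM in DMSO (-1.43 ± 0.22). The polymerase clamp PCNA, also a p53 target, had 136, 109.6 and 102 FPKM at the upper doses, against 218 and 213 FPKM at the lower doses and 99.6 FPKM in DMSO (-0.90 ± 0.14). PCNA was far over DMSO at both lower doses and close to DMSO at 20 µM. E2F3 (-0.96 ± 0.23) was not called.

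The nuclear RNA decay list held 6 lower calls among 17 tested genes (EXOSC2, EXOSC8, EXOSC10, DIS3, RBM7 and PAPD7) and 0 higher ones, against 8.38% and 0.491% of all genes. Its median was -0.71, negative also with median centring (-0.48) and quantile normalization (-0.50), and was -0.44 against 2 µM alone and -0.66 against 0.5 µM alone. EXOSC8 and DIS3 were not called with centring (adjusted p = 0.0895 and 0.0649, limma). The exosome trims and degrades RNA in the nucleus, and RBM7 belongs to the adaptor that brings it to promoter and enhancer transcripts. RBM7 had 3.55, 2.65 and 2.83 FPKM at 5, 10 and 20 µM, against 13.1 and 8.21 FPKM at 0.5 and 2 µM and 12.8 FPKM in DMSO (-1.51 ± 0.22). EXOSC10, a catalytic subunit, had 10.7, 10.5 and 9.88 FPKM at the upper doses, against 23.3 and 16.1 FPKM at the lower doses and 26.4 FPKM in DMSO (-0.84 ± 0.17), and the catalytic subunit DIS3 had 6.23, 5.09 and 4.57 FPKM at the upper doses, against 8.89 and 9.56 FPKM at the lower doses and 5.90 FPKM in DMSO (-0.71 ± 0.15). RBM7 and EXOSC10 ended far under DMSO, whereas DIS3 was above DMSO at both lower doses and near it at the upper ones. The core subunits EXOSC1, EXOSC4 and EXOSC5 had overlapping sides.

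In the elongation list 4 of 18 genes were called lower (CCNT2, MEPCE, ELL2 and CDK7) and 0 higher, against 8.38% and 0.491% of all genes. The median was -0.66, or -0.43 with median centring and -0.58 with quantile normalization, and it was -0.36 against 2 µM alone and -0.91 against 0.5 µM alone. All upper values lay below both lower ones in 16 of the 18, against 35.7% of all genes. CCNT2, a cyclin of the elongation factor P-TEFb, had 4.26, 3.43 and 3.62 FPKM at the upper doses, against 9.07 and 7.94 FPKM at the lower doses and 5.73 FPKM in DMSO (-1.0 ± 0.13). ELL2, an elongation factor, had 1.92, 1.78 and 2.0 FPKM at the upper doses, against 7.63 and 3.99 FPKM at the lower doses and 10.4 FPKM in DMSO (-1.18 ± 0.25). IWS1 had 0.742, 0.942 and 0.851 FPKM at the upper doses, against 8.13 and 1.78 FPKM at the lower doses and 14.4 FPKM in DMSO and CDK13, a kinase of the polymerase tail, had 0.690, 0.738 and 0.822 FPKM at the upper doses, against 6.16 and 1.36 FPKM at the lower doses and 9.41 FPKM in DMSO; neither was called (-1.45 ± 0.49 and -1.23 ± 0.46), and in both the 0.5 µM value lay far above the 2 µM value.

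Of 20 cleavage and polyadenylation factors, 3 were called lower (CPSF4, CSTF1 and CSTF2T) and 0 higher, against 8.38% and 0.491% of all genes. The median of -0.26 moved to -0.02 with median centring and -0.12 with quantile normalization and was -0.24 against 2 µM alone and -0.54 against 0.5 µM alone; CSTF2T was not called with centring (adjusted p = 0.0593, limma). CSTF1, part of the complex that stimulates 3′ end cleavage, had 7.98, 5.61 and 5.79 FPKM at 5, 10 and 20 µM, against 18.0 and 15.3 FPKM at 0.5 and 2 µM and 15.1 FPKM in DMSO (-1.25 ± 0.18). CPSF4, which helps to read the poly(A) signal, had 9.88, 8.03 and 6.45 FPKM at the upper doses, against 19.0 and 14.5 FPKM at the lower doses and 14.5 FPKM in DMSO (-0.96 ± 0.20). CSTF1 was at or above DMSO at the lower doses and far under it at the upper ones. FIP1L1 (-1.49 ± 0.34), WDR33 (-1.17 ± 0.36) and the poly(A) polymerase PAPOLG (-1.03 ± 0.26) had larger or similar differences and were not called. Among 15 SR splicing factors and CLK kinases, 3 were lower (SRSF4, SRSF6 and CLK3) and 0 higher, again against 8.38% and 0.491%, with a median of -0.33 that was -0.10 with median centring and -0.32 with quantile normalization. Only SRSF6 of the 3 was called with centring (adjusted p = 0.0705 for SRSF4 and 0.0518 for CLK3, limma). SRSF6 had 28.4, 22.1 and 21.8 FPKM at the upper doses, against 81.8 and 61.7 FPKM at the lower doses and 39.5 FPKM in DMSO (-1.53 ± 0.17), with both lower values well above DMSO and the upper ones under it. SRSF3 (-1.11 ± 0.34) was not called.

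Many p53 targets stood above DMSO at the lower doses, and part of them was lower again at 5 to 20 µM. Of 15 targets that act in arrest and feedback, 4 were called lower (PLK2, CCNG1, PPM1D and SESN1) and 0 higher, against 8.38% and 0.491% of all genes. Their median was 0.69 above DMSO at the upper and 1.44 above it at the lower doses; the median difference of -0.46 stayed negative with median centring (-0.23) and quantile normalization (-0.53). Of 8 targets in repair and nucleotide supply, XPC and C12orf5 were lower and 0 higher, with a median of -0.78, or -0.55 with median centring and -0.73 with quantile normalization; it was -0.43 against 2 µM alone and -1.13 against 0.5 µM alone. Of 9 apoptosis targets 0 were called either way, and their median of -0.09 turned to 0.15 with median centring and was -0.21 against 2 µM alone and -0.12 against 0.5 µM alone.

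Sequence upstream of the start was read for 2 of the called p53 targets, SESN1 and PLK2, because both were called lower, nearer to DMSO, and both hold a p53 half-site there. The windows are 250 bases 5′ of a RefSeq start on GRCh38.p14, written 5′ to 3′ on the gene's strand, with the 10-base p53 half-site in capitals. The SESN1 window is chr6:109008989-109009238 (minus strand, the most downstream of its 3 starts) and the PLK2 window chr5:58460087-58460336 (minus strand).
SESN1: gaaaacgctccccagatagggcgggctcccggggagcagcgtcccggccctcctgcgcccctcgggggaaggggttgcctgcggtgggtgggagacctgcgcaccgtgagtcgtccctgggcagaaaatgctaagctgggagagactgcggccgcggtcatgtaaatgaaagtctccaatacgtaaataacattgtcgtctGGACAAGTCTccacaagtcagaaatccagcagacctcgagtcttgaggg
PLK2: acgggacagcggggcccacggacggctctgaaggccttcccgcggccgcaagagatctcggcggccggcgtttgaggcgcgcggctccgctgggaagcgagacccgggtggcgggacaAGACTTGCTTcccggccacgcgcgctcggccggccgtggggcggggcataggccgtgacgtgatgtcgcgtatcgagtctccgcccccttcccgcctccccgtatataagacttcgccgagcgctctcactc
The half-site begins 49 bases before the start in SESN1 and 132 bases before it in PLK2. It was searched by its consensus, which is its own reverse complement. It was found in 6 of 40 windows of 28 matched genes (AEN, FAS, FDXR, PLK2, RPS27L and SESN1), and in 5.57% of all 35116 windows of the table. None was found in the windows of CCNG1, PPM1D, XPC, C12orf5 or MDM2, which says only that these letters are not in these 250 bases. A match is a description and not a binding site. AEN and RPS27L, which hold the half-site too, had overlapping sides (-0.09 ± 0.11 and -0.10 ± 0.09).

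SESN1, a sestrin that restrains growth signalling, had 6.36, 4.65 and 5.10 FPKM at 5, 10 and 20 µM, against 15.2 and 12.4 FPKM at 0.5 and 2 µM and 2.92 FPKM in DMSO (-1.22 ± 0.16, adjusted p = 0.0459, limma). All 6 libraries fall in order of side, with DMSO lowest, the upper doses next and the lower doses highest. PLK2, a polo-like kinase, had 35.5, 31.7 and 30.9 FPKM at the upper doses, against 46.5 and 44.3 FPKM at the lower doses and 24.9 FPKM in DMSO (-0.46 ± 0.09), and cyclin G1 (CCNG1) had 38.4, 32.9 and 31.3 FPKM at the upper doses, against 65.8 and 55.8 FPKM at the lower doses and 30.7 FPKM in DMSO (-0.81 ± 0.13). Both kept the same order, with the 20 µM value of CCNG1 close to DMSO. With median centring the difference of PLK2 was -0.23 and its call was lost (adjusted p = 0.185, limma). PPM1D, the phosphatase that acts against p53, had 8.61, 6.42 and 7.15 FPKM at the upper doses, against 28.1 and 16.8 FPKM at the lower doses and 10.5 FPKM in DMSO (-1.45 ± 0.24), and ended under DMSO. C12orf5, which encodes the metabolic regulator TIGAR, had 6.07, 4.64 and 5.14 FPKM at the upper doses, against 17.5 and 12.2 FPKM at the lower doses and 6.11 FPKM in DMSO (-1.32 ± 0.19), and the damage sensor XPC had 6.06, 5.18 and 4.99 FPKM at the upper doses, against 16.2 and 10.7 FPKM at the lower doses and 8.26 FPKM in DMSO (-1.15 ± 0.20).

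Several p53 targets overlapped between the sides. CDKN1A, the cell cycle inhibitor p21, had 142, 139 and 137 FPKM at 5, 10 and 20 µM, against 128 and 142 FPKM at 0.5 and 2 µM and 31.6 FPKM in DMSO. It was far above DMSO in every CPT library, its sides overlapped and the difference was 0.05 ± 0.08 (adjusted p = 0.635, limma). BAX, PIDD1, AEN and RPS27L had overlapping sides as well. MDM2, the ubiquitin ligase that holds p53 down, had 6.31, 5.76 and 6.30 FPKM at the upper doses, against 34.1 and 11.6 FPKM at the lower doses and 13.2 FPKM in DMSO. Its difference of -1.56 ± 0.42 was not called (adjusted p = 0.0687, limma), with the 0.5 µM value far above the 2 µM value. FAS, a death receptor, had the same shape, at 2.30, 1.78 and 2.24 FPKM at the upper doses, against 17.8 and 5.16 FPKM at the lower doses and 3.50 FPKM in DMSO (-1.80 ± 0.47, not called).

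**Figure D4:**
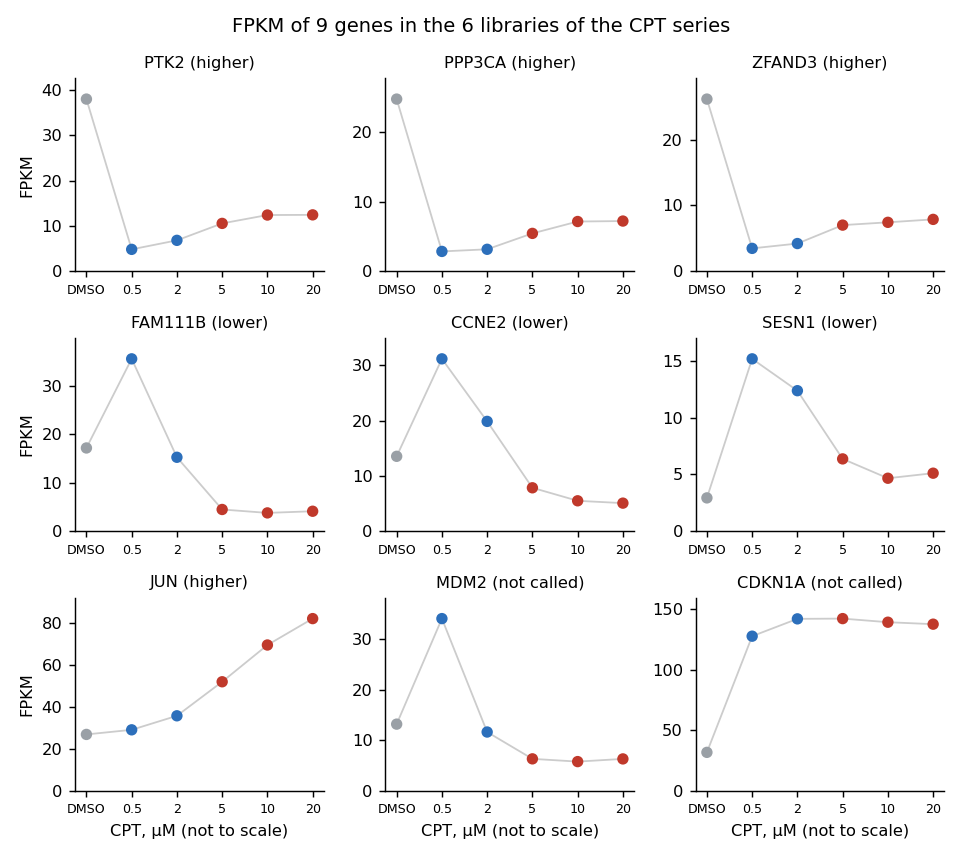
FPKM of 9 genes (vertical, from 0) in DMSO and at 0.5, 2, 5, 10 and 20 µM CPT (horizontal, not to scale), 1 library per point. PTK2, PPP3CA and ZFAND3 drop below DMSO and are higher again from 5 µM, FAM111B, CCNE2 and SESN1 peak at 0.5 µM, JUN climbs to 82.1 FPKM, and MDM2 and CDKN1A were not called.

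Immediate early genes ran the other way. These are short genes switched on within minutes of a stimulus, many of them coding for transcription factors. Of 18 tested, 1 (JUN) was called higher and 0 lower, against 0.491% and 8.38% of all genes. All upper values lay above both lower ones in 14 (28.9% of all genes). The median was 0.75, or 0.98 with median centring and 0.92 with quantile normalization. It was 0.49 against 2 µM alone and 1.09 against 0.5 µM alone. JUN, a subunit of AP-1, had 51.9, 69.5 and 82.1 FPKM at 5, 10 and 20 µM, against 29.0 and 35.7 FPKM at 0.5 and 2 µM and 26.8 FPKM in DMSO (1.03 ± 0.21, adjusted p = 0.0487, limma). In 11 of the 18 the value was higher at each step through 5, 10 and 20 µM, against 27.6% of all genes. The range of a gene over the 3 upper doses had a median of 0.32 log2 units in the list and 0.13 over all genes, while the step between 0.5 and 2 µM had a median size of 0.63 and 0.32. FOSL1 and MYC were level through the upper doses, FOSL1 at 53.4, 54.5 and 52.0 FPKM and MYC at 52.5, 51.7 and 51.4 FPKM at 5, 10 and 20 µM. JUNB had 63.3, 84.0 and 102 FPKM at the upper doses, against 14.3 and 39.0 FPKM at the lower doses and 4.42 FPKM in DMSO (1.74 ± 0.44), FOSB had 6.45, 9.47 and 12.4 FPKM at the upper doses, against 1.20 and 3.65 FPKM at the lower doses and 0.0692 FPKM in DMSO (1.67 ± 0.40) and FOS had 20.6, 26.7 and 33.5 FPKM at the upper doses, against 4.26 and 13.8 FPKM at the lower doses and 1.13 FPKM in DMSO (1.64 ± 0.46). None of these 3 was called, with an adjusted p between 0.0573 and 0.0736 (limma); in each the 0.5 µM value lay far under the 2 µM value. EGR1 had 49.4, 57.5 and 56.6 FPKM at the upper doses, against 13.0 and 32.3 FPKM at the lower doses and 13.8 FPKM in DMSO (1.36 ± 0.36, not called), while MYC, DUSP1, ATF3 and KLF2 had overlapping sides.

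The list of 19 very short signalling genes shares members such as JUN and JUNB with it. It held 1 higher call (JUN) and 0 lower ones, against 0.491% and 8.38% of all genes. Its median was 0.57, or 0.80 with median centring and 0.72 with quantile normalization. That median was 0.29 against 2 µM alone and 0.82 against 0.5 µM alone. IER2 had 56.2, 68.2 and 82.8 FPKM at the upper doses, against 25.5 and 43.2 FPKM at the lower doses and 16.7 FPKM in DMSO (1.02 ± 0.26) and ID2, an inhibitor of helix-loop-helix factors, had 19.7, 23.8 and 27.7 FPKM at the upper doses, against 8.35 and 15.8 FPKM at the lower doses and 5.14 FPKM in DMSO (0.97 ± 0.28); neither was called. Other higher genes that went further above DMSO included the histone gene HIST2H2AC and, chosen after their values were seen, CEBPA, MIA and a pair of LOC genes.

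Chemokines and NF-kB targets split. Of 12 tested, NFKB2 and RELB were lower and 0 were higher, against 8.38% and 0.491% of all genes. The median was 0.08 (0.31 with median centring and with quantile normalization). Its sign hung on the lower library, with -0.22 against 2 µM alone and 0.33 against 0.5 µM alone. NFKB2, a precursor subunit of NF-kB, had 14.1, 10.8 and 11.3 FPKM at 5, 10 and 20 µM, against 25.7 and 25.4 FPKM at 0.5 and 2 µM and 14.7 FPKM in DMSO (-1.03 ± 0.13), and RELB, its usual partner, had 7.42, 4.87 and 5.52 FPKM at the upper doses, against 11.6 and 13.3 FPKM at the lower doses and 4.53 FPKM in DMSO (-0.97 ± 0.18). Both lower doses were alike in each gene and well above DMSO, and the upper values were near it. CXCL3 had 8.93, 10.5 and 11.7 FPKM at the upper doses, against 0.607 and 4.66 FPKM at the lower doses and 0.112 FPKM in DMSO (1.91 ± 0.52) and CXCL8, a neutrophil attractant, had 67.6, 59.5 and 49.0 FPKM at the upper doses, against 8.65 and 41.2 FPKM at the lower doses and 1.60 FPKM in DMSO (1.55 ± 0.61); neither was called. The chemokine values at 0.5 µM stood far under those at 2 µM, and 9 of the 12 genes were lower at each step through 5, 10 and 20 µM (22.7% of all genes).

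TOP1, the target of the drug, overlapped between the sides. It had 12.1, 13.4 and 14.2 FPKM at 5, 10 and 20 µM, against 23.6 and 12.9 FPKM at 0.5 and 2 µM and 31.0 FPKM in DMSO, and the difference was -0.38 ± 0.25 (adjusted p = 0.281, limma). All 5 CPT values were under DMSO, and the 2 µM value lay among the upper ones. Of 17 topoisomerases and genes that repair trapped topoisomerase, TDP2 and ERCC4 were called lower and 0 higher, near the 8.38% and 0.491% of all genes, with a median of -0.15 that turned to 0.08 with median centring and was 0.02 against 2 µM alone and -0.51 against 0.5 µM alone. TDP2, which removes topoisomerase II from DNA ends, had 8.48, 7.71 and 6.74 FPKM at the upper doses, against 16.2 and 15.1 FPKM at the lower doses and 13.0 FPKM in DMSO (-0.95 ± 0.12). ERCC4, the nuclease subunit XPF, had 2.24, 1.84 and 2.0 FPKM at the upper doses, against 4.86 and 4.65 FPKM at the lower doses and 3.30 FPKM in DMSO (-0.93 ± 0.12). Both were above DMSO at both lower doses and under it at all 3 upper ones. TDP1, which acts on trapped TOP1, had 0.910, 0.955 and 1.06 FPKM at the upper doses, against 1.86 and 0.895 FPKM at the lower doses and 4.93 FPKM in DMSO and overlapped. TOP2A, TOP3B and XRCC1 overlapped too, and SPRTN, a protease for DNA-bound proteins, had -1.15 ± 0.25 (adjusted p = 0.0501, limma; not called).

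Of 18 DNA damage checkpoint genes, CDC25A, RNF8 and RNF168 were lower and 0 higher, against 8.38% and 0.491% of all genes. The median was -0.40, or -0.17 with median centring and -0.24 with quantile normalization, and it was -0.08 against 2 µM alone and -0.73 against 0.5 µM alone. CDC25A, the phosphatase that checkpoint kinases mark for destruction, had 10.5, 8.76 and 8.05 FPKM at 5, 10 and 20 µM, against 18.3 and 16.2 FPKM at 0.5 and 2 µM and 11.7 FPKM in DMSO (-0.86 ± 0.14). RNF168, a ubiquitin ligase at broken DNA, had 8.28, 6.75 and 6.40 FPKM at the upper doses, against 13.9 and 12.8 FPKM at the lower doses and 6.49 FPKM in DMSO (-0.82 ± 0.14), and its partner RNF8 differed by -0.92 ± 0.14. The upper values of RNF168 at 10 and 20 µM were level with DMSO. Of 18 Fanconi anaemia and homologous recombination genes, PALB2, which links BRCA1 to BRCA2, was lower (-0.84 ± 0.16) and 0 were higher, a share under the 8.38% of all genes. That list's median was -0.54, or -0.31 with median centring and -0.41 with quantile normalization, but -0.07 against 2 µM alone and -0.85 against 0.5 µM alone. BLM had 1.02, 1.06 and 1.21 FPKM at the upper doses, against 7.06 and 1.93 FPKM at the lower doses and 10.0 FPKM in DMSO (-1.22 ± 0.42, not called), with 0.5 µM far above 2 µM.

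**Figure D5:**
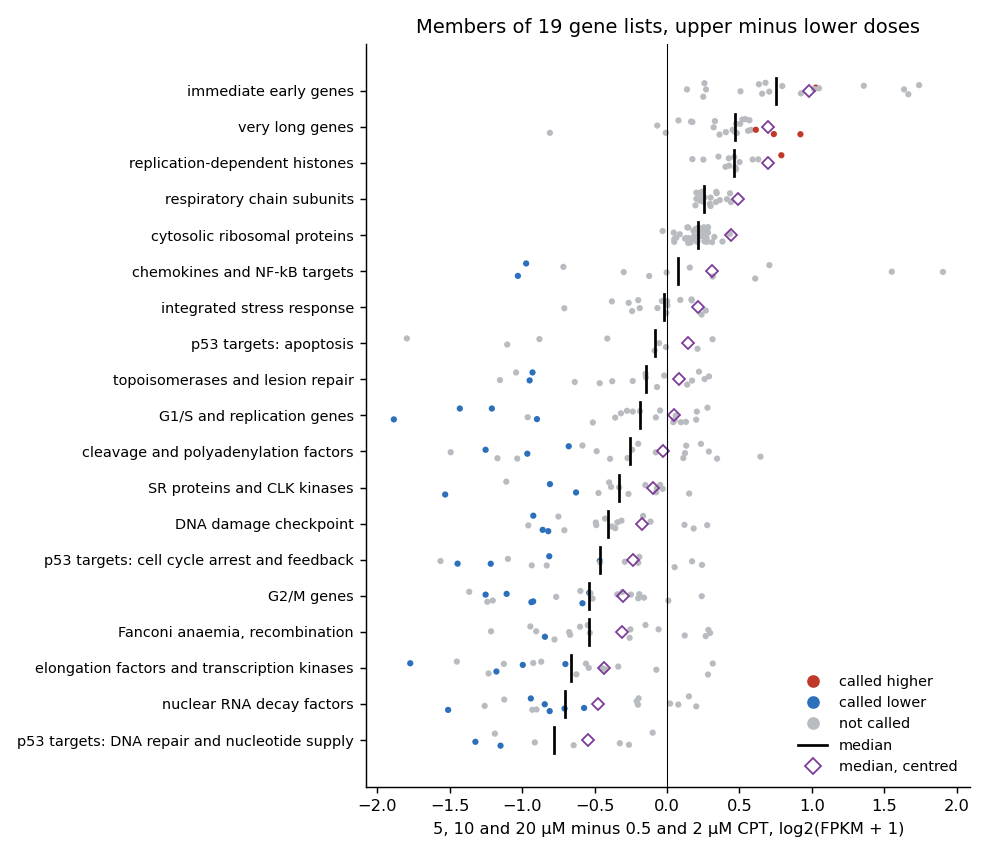
Upper minus lower CPT difference in log2(FPKM + 1) of the members of 19 gene lists, 1 point per gene, coloured by call, with the list median (bar) and the median after median centring (diamond). Immediate early genes, very long genes and histones lie mostly right of 0 and RNA decay, elongation and G2/M genes mostly left; the medians of the stress response, apoptosis, topoisomerase and G1/S lists change sign with centring.

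Ribosomal protein and respiratory chain genes had small differences, and none was called. Of 50 cytosolic ribosomal protein genes 29 had all upper values above both lower ones, against 28.9% of all genes, and the median of 0.21 went to 0.44 with median centring and -0.02 with quantile normalization; it was 0.10 against 2 µM alone and 0.34 against 0.5 µM alone. RPS2 had 849, 938 and 964 FPKM at the upper doses, against 622 and 793 FPKM at the lower doses and 476 FPKM in DMSO (0.38 ± 0.14). All 21 respiratory chain subunits had a positive difference as deposited, and in 16 all upper values were above both lower ones. Their median was 0.26, or 0.49 with median centring and 0.16 with quantile normalization, and it was 0.08 against 2 µM alone and 0.48 against 0.5 µM alone. Of 13 replication-dependent histone genes HIST2H2AC was higher and 0 lower, against 0.491% and 8.38% of all genes, with a median of 0.46, or 0.70 with centring and 0.65 with quantile normalization, and 0.19 against 2 µM alone and 0.69 against 0.5 µM alone. HIST2H2AC had 6.21, 6.58 and 6.37 FPKM at the upper doses, against 2.83 and 3.77 FPKM at the lower doses and 2.57 FPKM in DMSO (0.79 ± 0.14); histone genes of a cluster are near copies of one another and their reads may be shared.

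T4 and T5 were measured at the same doses in other libraries, and the genes called with CPT were looked up there. Of the 888 genes lower with CPT, 875 also had a lower upper-dose mean with T4 and 868 with T5, against 57.0% and 54.1% of all genes. Their median difference was -0.91 with CPT, -0.99 with T4 and -0.98 with T5. Of the 44 genes that CPT had pushed down and that were higher at its upper doses, 29 had a positive difference with T4 and 28 with T5, against 42.6% and 45.6% of all genes. Their medians were 0.63 with CPT, 0.09 with T4 and 0.08 with T5. Since the genes were chosen by their CPT values, the excess of CPT over the others is no result.

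The difference itself was tested over all genes, as the CPT upper minus lower difference minus the mean of those of T4 and T5. It was larger with CPT in 1 gene of 10600 (0.00943%), the small nucleolar RNA SNORA48, and smaller in 0 (0%) (limma, adjusted p under 0.05), while 1079 and 604 genes had an unadjusted p under 0.05. SNORA48 was listed at 0 in every CPT library, and the call comes from T5, where it was listed at 0 at the upper doses and at 132.8 and 134.02 FPKM at 0.5 and 2 µM. In that fit no gene passed on its CPT values. PTK2 differed by 1.21 ± 0.22 (SE), with an own difference of -0.27 with T4 and -0.32 with T5, and ZFAND3 by 1.33 ± 0.22, with -0.50 and -0.55; neither passed (adjusted p = 0.0853 for both, limma). Genes of 200 to 400 kb had a median CPT minus T4 and T5 difference of 0.31, and genes of at least 400 kb 0.25, against 0.02 over all genes.

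The outcome of that test turned on how the doses entered the fit. The 3 compounds share their 5 doses, and with dose as a block, a setting chosen after the data had been seen, 1207 genes (11.4%) had a larger difference with CPT and 687 (6.48%) a smaller one (limma, adjusted p under 0.05, 6 residual degrees of freedom). This fit takes the steps between doses of a side to be equal for the 3 compounds, whereas the fit without the block counts those steps as scatter. PTK2 (1.21 ± 0.20), PPP3CA (1.29 ± 0.18), ZFAND3 (1.33 ± 0.19) and TRIO (1.28 ± 0.21) were larger with CPT, with an adjusted p between 0.0139 and 0.0162 (limma). In each the difference was positive with CPT and negative with T4 and with T5; the genes were named by their CPT values, which also enter this test. Of the 23 very long genes 10 were larger and 1 smaller with CPT, and the larger calls made up 30.6% of the genes of 200 to 400 kb and 49 of the 175 genes of at least 400 kb.

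Under the same block, immediate early genes, p53 targets and NF-kB targets had a smaller difference with CPT more often than all genes. Over all genes 6.48% were smaller and 11.4% larger. Smaller and larger go by sign, so a smaller difference is a lesser rise for FOS but a deeper fall for XPC. Of 9 p53 targets in apoptosis 5 were smaller and 1 larger, and of 15 in arrest and feedback 4 were smaller and 1 larger. Of 12 chemokines and NF-kB targets 5 were smaller and 1 larger. Of 18 immediate early genes 8 were smaller with CPT and 1 larger, and FOS had a difference of 1.64 with CPT, against 3.20 with T4 and 3.01 with T5 (-1.47 ± 0.23, adjusted p = 0.0150, limma). Of the 8 p53 targets in repair and nucleotide supply 7 were smaller and 0 larger, among them XPC, whose difference was -1.15 with CPT, against -0.55 with T4 and -0.78 with T5 (-0.49 ± 0.10, adjusted p = 0.0179, limma). AURKA had a difference of -1.25 with CPT, against -2.72 with T4 and -3.15 with T5 (1.68 ± 0.41, adjusted p = 0.0289, limma).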

How the data were processed

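RNA of U2OS cells was sequenced on an Illumina HiSeq instrument per the labels' protocols, and GSNAP, Cufflinks and the hg19/GRCh37 build are named in the submitters' processing notes; no source used here gives versions or strand. The deposited FPKM matrix, made by the authors, held 25270 genes and 16 libraries after 1 inner header line, 1 incomplete line, 1 line with non-numeric values and 220 identical repeated lines were left out. FPKM sums were 250880 to 284473 in the CPT libraries and 238669 in DMSO. The files give no counts, so the absolute depth is unknown and no counting interval is given. The values were taken as log2(FPKM + 1), and the 10600 genes whose FPKM averaged 1 or more across all libraries were tested with limma 3.58.1 in R 4.3.3 (moderated variances with a trend), first 5 CPT libraries (upper against lower), then 15 treated libraries with 1 mean per compound and side. A fold on this scale understates the change of low genes. The test was checked on simulated data. There the libraries of a side differed only by random scatter, so change with dose inside a side was not covered.

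Genes named by rule were the 12 higher and 12 lower called genes with the largest difference and no overlap. The rule added up to 4 members of each list by absolute difference, TOP1, CDKN1A and MDM2. It also added up to 4 genes per direction that returned to or crossed DMSO from at least 1 log2 unit away. Other genes, mostly list members such as PLK2, CDC20 and EXT1, are named outside this rule. Pseudogenes, LOC and clone names and small RNAs were passed over except in lists. The members compared and the 26 gene lists were chosen with earlier results of these data known. The counts of the cholesterol synthesis list and a few named genes are not reported here. Symbols missing from the matrix were matched through RefSeq synonyms. Spans came from GENCODE v29 (GRCh38), another build than the files', and no coordinates were taken from it; promoter windows came from RefSeq GRCh38.p14. Alternatives were pseudocounts of 0.1 and 5, no filter, a mean FPKM of at least 5, median centring, quantile normalization, a spread pooled over 16 libraries, no variance trend, each CPT library left out and, for the compounds, dose as a block. Python 3.11.15, pandas 2.3.3 and matplotlib 3.10.9 were used for tables and figures.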

Additional observations from a re-analysis of the deposited data

Results flagged for a closer look

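SNORA48, a small nucleolar RNA, had a difference between upper and lower doses that was 3.54 log2 units larger with CPT than with T4 and T5, the only gene whose difference passed that test without dose as a block (limma, adjusted p = 3.38e-09). It was listed at 0 in all CPT, T4 and DMSO libraries, at 0 at 5, 10 and 20 µM T5 and at 132.8 and 134.02 FPKM at 0.5 and 2 µM T5. FPKM of so short an RNA is unreliable.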

How the results depend on the processing

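The count of genes lower or higher at the upper doses depends on the fit, with 888 lower and 52 higher as reported. Higher counts were 86 with a pseudocount of 0.1, 0 with 5, 0 without a filter on low values, 897 with median centring, 0 with quantile normalization, 677 with the spread pooled over 16 libraries and 85 without the variance trend. Lower counts were 0 with a pseudocount of 5, 3 without a filter, 567 at a mean FPKM of at least 5, 0 with quantile normalization and 1546 with the pooled spread. At an unadjusted p under 0.05, limma gave 1512 higher and 2649 lower genes with a pseudocount of 5 and 2074 and 3631 without a filter. Leaving out 1 CPT library gave 0 to 3375 higher and 0 to 4166 lower genes: 0 each without 5, 10 or 20 µM, 497 and 1907 without 0.5 µM (sharing 49 and 865 with the reported calls), and 3375 and 4166 without 2 µM, where the lone lower library is assumed to vary like the upper ones. For the difference between CPT and the other compounds, the larger count of 1 became 83 without a filter, 52 with quantile normalization, 12 without the 0.5 µM libraries and 0 against T4 alone. The smaller count of 0 became 87 without a filter, 28 with quantile normalization, 2 with a pseudocount of 5 and 7 without the 0.5 µM libraries, an alternative chosen after seeing the data. With dose as a block over the 3 compounds, also chosen after seeing the data, these counts were 1207 and 687. Apart from the fewer libraries or genes in a setting, the cause was not tested. No called named gene turned its sign in any setting of the CPT sides. Only quantile normalization could have done so, since the sides of called genes do not overlap and centring shifts less than their smallest difference. Low genes are limited most, since their log2 values depend on the pseudocount. No paired analysis was possible because, between the CPT sides, each dose has 1 library and its replicate number is 1 throughout; over compounds the shared doses allow the block given here.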

Other observations

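Cholesterol synthesis, feedback and stress genes gave mixed pictures between the upper and lower CPT doses. Of the cholesterol synthesis list, SQLE, which makes squalene epoxide, was called lower and had 6.46, 5.36 and 5.91 FPKM at 5, 10 and 20 µM, against 30.5 and 13.7 FPKM at 0.5 and 2 µM and 26.6 FPKM in DMSO (-1.64 ± 0.33). MVD, of the same pathway, had 11.8, 13.2 and 13.9 FPKM at the upper doses, against 7.33 and 9.57 FPKM at the lower doses and 8.22 FPKM in DMSO (0.57 ± 0.14, not called), on the other side of 0. Of 14 TGF-beta and BMP feedback genes PMEPA1 was lower (-0.59 ± 0.10) and 0 higher, near the 8.38% and 0.491% of all genes. PMEPA1 was not called with centring (adjusted p = 0.0650, limma). The list median of -0.14 turned to 0.09 with centring. It was -0.01 against 2 µM alone and -0.29 against 0.5 µM alone. Of 16 integrated stress response genes and 10 heat shock genes 0 were called; their medians were -0.02 and 0.15, and centring moved them to 0.21 and 0.38, while quantile normalization moved that of the heat shock genes to -0.08. The stress response median was -0.18 against 2 µM alone and 0.10 against 0.5 µM alone, and the heat shock median 0.05 against 2 µM alone and 0.18 against 0.5 µM alone. HSPB1, a small heat shock protein, had 178, 198 and 231 FPKM at the upper doses, against 102 and 160.4 FPKM at the lower doses and 113 FPKM in DMSO and DNAJA1, a co-chaperone, had 90.5, 93.3 and 89.8 FPKM at the upper doses, against 183 and 120.2 FPKM at the lower doses and 177 FPKM in DMSO; neither was called (0.65 ± 0.22 and -0.70 ± 0.18).

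Hosts of small nucleolar RNAs did not share a direction. Of 12 nuclear long noncoding RNAs and host genes, SNHG12 was lower (-0.79 ± 0.15) and 0 were higher, near the 8.38% and 0.491% of all genes. The median was 0.22, or 0.45 with median centring and 0.15 with quantile normalization. It was 0.09 against 2 µM alone and 0.19 against 0.5 µM alone. SNHG1 had 107, 118 and 113 FPKM at 5, 10 and 20 µM, against 51.9 and 78.4 FPKM at 0.5 and 2 µM and 44.9 FPKM in DMSO (0.81 ± 0.18, not called), whereas GAS5 had 28.9, 24.4 and 21.2 FPKM at the upper doses, against 42.9 and 37.3 FPKM at the lower doses and 40.2 FPKM in DMSO (-0.68 ± 0.15, not called). The 2 genes are short host genes whose values lay on opposite sides of DMSO at the upper doses. Of 7 bone genes and 3 epithelial or blood genes tested, 0 were called, with medians of 0.28 and 0.14 (0.51 and 0.38 with median centring, 0.11 and 0.35 with quantile normalization).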
